A study of Mus musculus with 9 samples.

Results

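The Myc, Max and Mxd network is a small family of transcription factors, and 10 of the 25655 genes in the deposited table were taken as its members by their gene symbols. They are the Myc factors *Myc*, *Mycn* and *Mycl*, their shared partner *Max*, the antagonists *Mxd1*, *Mxi1*, *Mxd3*, *Mxd4* and *Mnt*, and the Max-like factor *Mlx*. Messenger RNA was sequenced from muscle stem cells (MuSCs) of mice, the cells that repair skeletal muscle, in 3 groups of 3 libraries. The cultured groups (MyoD-tdTomato low, MyoD-tdTomato high) were cells of MyoD-KI mice of 10 to 16 weeks, in which the red fluorescent protein tdTomato is read out from the *MyoD* locus on 1 knock-in allele. They were enriched with magnetic beads against integrin α7, grown for 5 days and then parted by their tdTomato fluorescence. QSCs were MuSCs of male Pax7-YFP mice of 15 to 16 weeks, with the yellow fluorescent protein YFP on both *Pax7* alleles. They were isolated from leg muscle and not cultured. The methods describe digestion of minced muscle with collagenase and trypsin before MuSCs were isolated.

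Strain, culture, sort and the time since muscle digestion differed together between the cultured groups and QSCs. Their parts in any difference from QSCs therefore cannot be told apart. The libraries within a group are described as technical replicates in the methods, and every p below therefore measures only the spread between libraries. In bulk RNA, fewer cells of a type and less RNA per cell cannot be told apart. The libraries held 24471782 to 25767904 counts in MyoD-tdTomato low cells, 24643176 to 26782872 in MyoD-tdTomato high cells and 7514633 to 18077031 in QSCs. *Myod1*, whose locus drives the sorted reporter, stood at 707 ± 16 CPM (counts scaled to a common library total) in MyoD-tdTomato low cells and 1458 ± 21 CPM in MyoD-tdTomato high cells (SD, n = 3 each). The stem cell gene *Pax7* had 146 ± 4.9, 80.5 ± 14 and 310 ± 47 CPM in MyoD-tdTomato low cells, MyoD-tdTomato high cells and QSCs. Endothelial, myeloid, erythroid and fibroblast markers were higher in QSCs. The 10 endothelial markers summed to 26.1 to 36.8 CPM in MyoD-tdTomato low, 8.14 to 9.62 CPM in MyoD-tdTomato high and 421 to 898 CPM in QSCs libraries, and the 10 myeloid markers to 26.1 to 43.3, 6.08 to 12.8 and 87.4 to 136 CPM. The 5 erythroid markers summed to at most 0.213 CPM in any cultured library and to 213 to 707 CPM in QSCs, and *Hbb-bs* and *Hbb-bt* were at 0 in every cultured library. The 9 fibroblast markers summed to 926 to 1412, 774 to 905 and 2963 to 3585 CPM in the same order. The 7 pericyte markers summed to 390 to 669, 270 to 347 and 1056 to 1439 CPM and the 6 Schwann cell markers to 377 to 468, 767 to 1103 and 279 to 370 CPM. Mitochondrially encoded genes took 3.92 to 4.61% of counts in MyoD-tdTomato low, 4.44 to 4.95% in MyoD-tdTomato high and 11.4 to 19.0% in QSCs libraries. The endothelial marker *Cldn5* and the leukocyte marker *Ptprc* were at 0 in every MyoD-tdTomato high library. The part of these cells and of the mitochondrial share in the results below was not tested.

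Myc proteins act as pairs with Max, and a Myc and Max pair binds the DNA element CACGTG, the E-box, and recruits coactivators that open chromatin and raise transcription. Mxd proteins and Mnt take the place of Myc as partners of Max at the same element and recruit the Sin3 and histone deacetylase corepressors. Mlx pairs with some of the antagonists and with the Mondo proteins, which respond to glucose metabolites. *Myc* is induced early when resting cells are stimulated and is known for driving growth and proliferation, whereas several Mxd genes are known for their rise during differentiation.

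The E-box is also found near the start sites of some network genes, and the sequences around it are shown because it is the element that the proteins of the network bind. RefSeq promoters on build GRCm38.p6, from 250 bases before to 50 bases after a gene's start site, matched 9 of the 10 members, with 11 windows. *Myc* had no window among them and was not examined for the E-box. CACGTG, which reads the same on both strands, was in the windows of 4 of these 9 members, *Mxd4*, *Mnt*, *Mlx* and *Max*, against 8.09% of 27025 genes in the same table (7.15% of 32851 windows). The stretches below run 5′ to 3′ on the strand of the gene, with the E-box in capitals and 30 bases on each side, ended 10 bases after the start site in *Max*.
Mxd4 (chr5:34187894-34187959, minus strand): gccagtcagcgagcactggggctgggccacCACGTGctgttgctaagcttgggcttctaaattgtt
Mnt (chr11:74830771-74830836, plus strand): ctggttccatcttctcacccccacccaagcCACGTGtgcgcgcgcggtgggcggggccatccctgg
Mlx (chr11:101087220-101087285, plus strand): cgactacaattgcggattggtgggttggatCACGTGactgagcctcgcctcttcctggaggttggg
Max (chr12:76962239-76962281, minus strand): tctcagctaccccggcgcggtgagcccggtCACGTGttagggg

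The first base of the E-box lay 219 bases before the start site in *Mxd4*, 123 in *Mnt*, 40 in *Mlx* and 3 in *Max*. In the windows of *Mxd1*, *Mxd3*, *Mxi1*, *Mycl* and *Mycn* these letters were not found. A match is a description of the letters only, since no binding was measured. The members lie on 8 chromosomes. On build GRCm39, as in the deposited table, the Myc factors are *Myc* (ENSMUSG00000022346) on chromosome 15 at 61857240 to 61862223, *Mycn* (ENSMUSG00000037169) on chromosome 12 at 12986094 to 12991915 and *Mycl* (ENSMUSG00000028654) on chromosome 4 at 122889445 to 122896278. The others are *Max* (ENSMUSG00000059436) on chromosome 12 at 76984043 to 77008975, *Mxd1* (ENSMUSG00000001156) on chromosome 6 at 86624024 to 86646143, *Mxi1* (ENSMUSG00000025025) on chromosome 19 at 53298949 to 53364241, *Mxd3* (ENSMUSG00000021485) on chromosome 13 at 55472981 to 55477636, *Mxd4* (ENSMUSG00000037235) on chromosome 5 at 34331227 to 34345064, *Mnt* (ENSMUSG00000000282) on chromosome 11 at 74721746 to 74736551 and *Mlx* (ENSMUSG00000017801) on chromosome 11 at 100978103 to 100983033. The regions of *Max* and *Mxd1* overlap predicted genes on the same strand, and those of *Mxi1*, *Mxd3* and *Mlx* overlap genes on the opposite strand, so some reads there may belong to either gene.

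Comparisons were made with edgeR's quasi-likelihood test on the counts, and a gene is called here when its Benjamini-Hochberg adjusted p over all 12614 genes tested was under 0.01 and its fold change over 1.5. Genes at 0 in at least 1 library were left out of the test, which removed 1 member, *Mxd3*, and left 9. For MyoD-tdTomato low against QSCs, 2 of these 9 members were called higher and 4 lower, beside 22.6% and 26.5% of all genes tested. For MyoD-tdTomato high against QSCs, 1 was called higher and 4 lower, beside 24.6% and 26.4% of all genes. Between the cultured groups, 1 member was called higher in MyoD-tdTomato low cells and none lower, beside 1.23% and 3.88% of all genes. The median log2 fold change of the 9 members was -0.81, -0.66 and 0.21 in the same order, and that of all genes tested -0.075, -0.022 and -0.00084. Both comparisons with QSCs use the same QSCs libraries, so their members' values are not independent of each other.

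Counts scaled with edgeR's TMM factors and the deposited TPM, a level per transcript length that sums to the same total in each library, place the groups differently. On log2(TPM + 1), the median of all genes tested lay 0.67 higher in MyoD-tdTomato low cells than in QSCs, 0.59 higher in MyoD-tdTomato high cells than in QSCs, and 0.11 higher in MyoD-tdTomato low cells than in MyoD-tdTomato high cells. With limma on this scale, 6013 of 7592 called genes were higher in MyoD-tdTomato low cells than in QSCs, against 2848 of 6191 on counts, and 5750 of 7549 were higher in MyoD-tdTomato high cells than in QSCs, against 3107 of 6440 on counts. TPM is used below for levels and for comparing genes with each other, since it is per length, and the counts are used for differences between groups.

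*Myc*, the founding member of the family, was the most abundant network gene in QSCs and was far lower in both cultured groups. It had 58.4, 73.5 and 57.8 TPM in the MyoD-tdTomato low libraries, 27.1, 43.4 and 30.5 TPM in the MyoD-tdTomato high libraries, and 513, 496 and 409 TPM in the QSCs libraries. The groups did not overlap, and each QSCs library was above every cultured library. *Myc* RNA was 13.0-fold lower in MyoD-tdTomato low cells than in QSCs (log2 fold change -3.70 ± 0.17 SE, adjusted p = 5.22e-08) and 22.2-fold lower in MyoD-tdTomato high cells than in QSCs (-4.48 ± 0.18, adjusted p = 1.73e-08). Both falls were called under all 21 alternative settings, and log2 fold changes ranged over -3.79 to -2.89 for MyoD-tdTomato low and -4.66 to -3.79 for MyoD-tdTomato high.

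Within the cultured cells *Myc* was higher in the MyoD-tdTomato low group, at 65.7 ± 8.3 CPM against 38.3 ± 8.6 CPM in MyoD-tdTomato high cells (SD, n = 3 each). The log2 fold change was 0.78 ± 0.16, with an adjusted p of 0.00957, close to the threshold. The call was lost without MyoD-tdTomato low replicate 1 (0.81, adjusted p = 0.0269), replicate 2 (0.68, 0.0437) or replicate 3 (0.85, 0.0234), and without MyoD-tdTomato high replicate 1 (0.68, 0.0463) or replicate 3 (0.72, 0.0569). It was also lost without QSCs replicate 1 (0.78, 0.0149) or replicate 3 (0.78, 0.0169), where the difference itself hardly moved, and with filterByExpr (0.78, 0.0124), in a fit of these 2 groups with no block (0.81, 0.0103) and on log2(TPM + 0.1) (0.93, 0.0108). The replicate numbers pair the libraries of the cultured groups, and in a fit of these 6 libraries with that number as a block *Myc* was called (0.82 ± 0.08, adjusted p = 7.52e-06).

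*Mycl*, which encodes L-Myc, moved the other way. It had 19.4, 11.1 and 22.0 TPM in MyoD-tdTomato low libraries, 67.8, 48.5 and 63.3 TPM in MyoD-tdTomato high libraries, and 0.413, 0.646 and 3.35 TPM in QSCs libraries. No library of one group reached the range of another. *Mycl* was 22.7-fold higher in MyoD-tdTomato high cells than in QSCs (log2 fold change 4.51 ± 0.65, adjusted p = 0.000123) and was called so under all 21 alternatives, at 3.97 to 6.36.

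*Mycl* was also higher in MyoD-tdTomato low cells than in QSCs (2.59 ± 0.62, adjusted p = 0.00381), on a narrower margin. This call was lost without QSCs replicate 1 (2.06, adjusted p = 0.0106) or replicate 2 (2.29, 0.0121) and without MyoD-tdTomato low replicate 1 (2.49, 0.0119) or replicate 3 (2.43, 0.0131), and also with no filter (2.75, 0.016) or only these 2 groups in the fit (2.74, 0.0113). Without QSCs replicate 3, which had 119 *Mycl* counts against 15 and 10 in the other QSCs libraries, the log2 fold change was 4.45. Between the cultured groups *Mycl* was at 25.6 ± 8.5 CPM in MyoD-tdTomato low cells and 96.4 ± 19 CPM in MyoD-tdTomato high cells, a log2 fold change of -1.91 ± 0.55 that was not called (adjusted p = 0.0475). It was called lower in MyoD-tdTomato low cells in the fit of the 6 cultured libraries blocked by replicate number (-1.92 ± 0.10, adjusted p = 7.21e-08), in the fit of the same libraries with no block (-1.88 ± 0.29, adjusted p = 0.0072) and without QSCs replicate 3 (-1.91, adjusted p = 0.00383). In the last 2 of these *Mycl* was the single member called between the cultured groups and *Myc* was not called.

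*Mycn*, which encodes N-Myc, was near the lower end of what these libraries measure. It had 22, 24 and 33 counts in MyoD-tdTomato low libraries, 12, 19 and 18 in MyoD-tdTomato high libraries, and 5, 3 and 70 in QSCs libraries. A single QSCs library, replicate 3, held most of the counts of its group. The log2 fold change was -1.28 ± 0.88 for MyoD-tdTomato low against QSCs (adjusted p = 0.223) and -1.86 ± 0.91 for MyoD-tdTomato high against QSCs (adjusted p = 0.0936), neither called. Without QSCs replicate 3 they had the opposite sign, 1.27 and 0.69 (adjusted p = 0.0743 and 0.305). Its log2 fold change in MyoD-tdTomato low cells relative to MyoD-tdTomato high cells was 0.57 ± 0.89 (adjusted p = 0.79).

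Low QSCs values also stand beside a background that differed between libraries. The 1602 chemosensory receptor genes, receptors of smell, taste and pheromones, summed to 17.7 to 21.6 CPM in MyoD-tdTomato low, 26.4 to 29.3 CPM in MyoD-tdTomato high and 686, 3209 and 999 CPM in QSCs libraries. Their median was 0 TPM in every cultured library and 0.0520, 0.595 and 0.0454 TPM in QSCs replicates 1, 2 and 3. In QSCs replicate 2 *Mycn* (0.264 TPM) and *Mxd3* (0 TPM) were below that median and *Mycl* (0.646 TPM) close to it. The part of this background in the QSCs values was not tested.

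*Max*, the partner with which Myc factors and antagonists bind the E-box, was between 34.5 and 74.8 TPM in every library. It had 68.5, 74.8 and 66.4 TPM in MyoD-tdTomato low libraries, 52.5, 60.3 and 58.1 TPM in MyoD-tdTomato high libraries, and 51.4, 53.9 and 34.5 TPM in QSCs libraries. The lowest value was that of QSCs replicate 3. On counts the log2 fold change was -0.19 ± 0.12 for MyoD-tdTomato low against QSCs (adjusted p = 0.195) and -0.35 ± 0.12 for MyoD-tdTomato high against QSCs (adjusted p = 0.026), neither called, while on log2(TPM + 1) both had the opposite sign, 0.60 (adjusted p = 0.00675) and 0.31 (adjusted p = 0.115). Those TPM differences lay below the shift of all genes on that scale, and once each library was centred on its median the log2 fold changes were -0.17 and -0.38. It was 0.16 between the cultured groups, not called (adjusted p = 0.491).

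**Figure D1:**
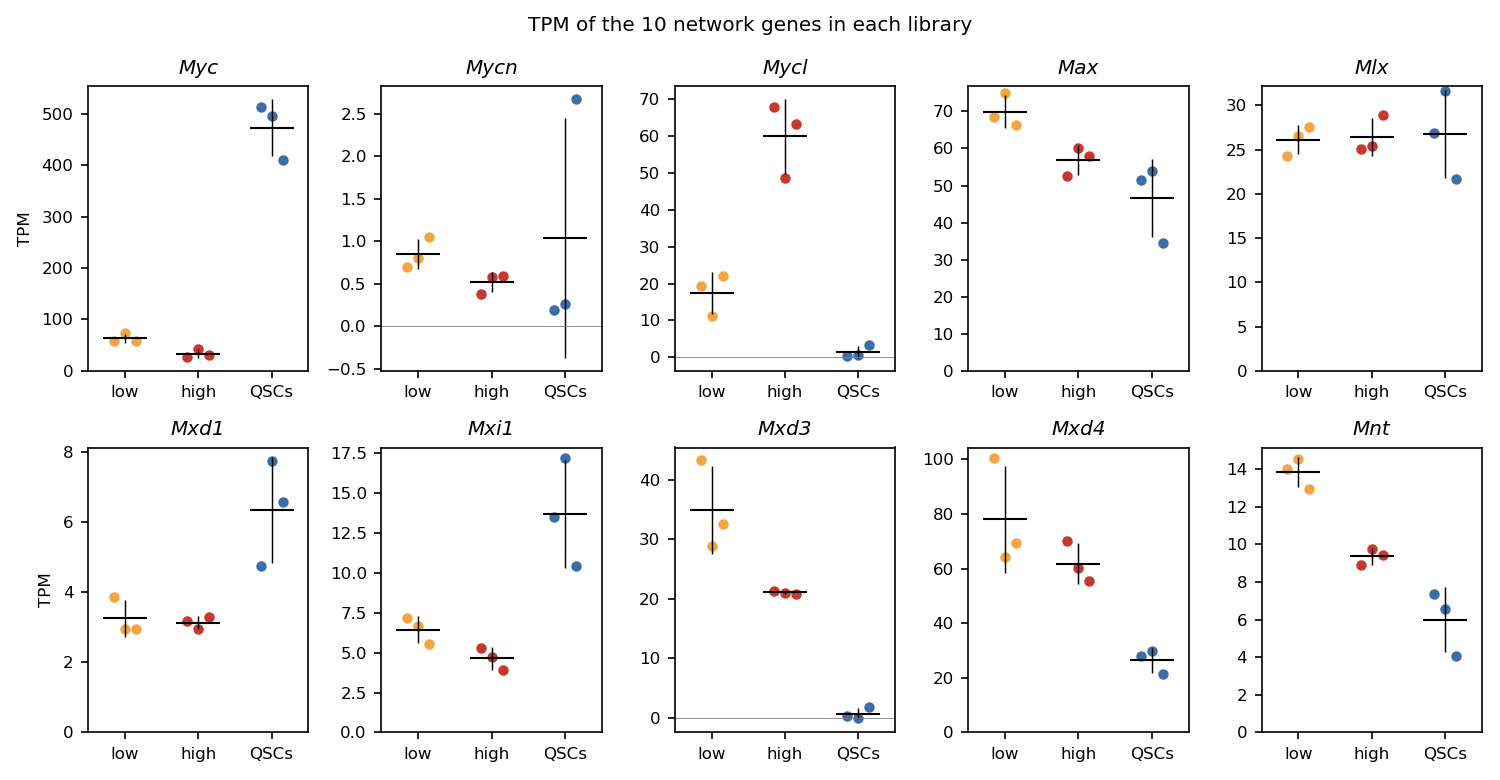
TPM of each network gene in the 3 MyoD-tdTomato low, 3 MyoD-tdTomato high and 3 QSCs libraries; each point is a library, the horizontal bar the group mean and the vertical bar 1 SD. *Myc* lies at 409 to 513 TPM in QSCs and at or below 73.5 TPM in every cultured library, while *Mycl*, *Mxd3* and *Mxd4* lie above QSCs in every cultured library.

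The 5 antagonists did not move together. *Mxi1*, which encodes the antagonist Mxi1 (also named Mxd2), had 7.17, 6.65 and 5.51 TPM in MyoD-tdTomato low libraries, 5.26, 4.75 and 3.89 TPM in MyoD-tdTomato high libraries, and 13.5, 17.2 and 10.4 TPM in QSCs libraries. Every cultured library was below every QSCs library. *Mxi1* was lower than in QSCs, at a log2 fold change of -1.85 ± 0.18 in MyoD-tdTomato low cells (adjusted p = 9.27e-06) and at -2.20 ± 0.19 in MyoD-tdTomato high cells (adjusted p = 2.64e-06). Its log2 fold change of 0.34 between the cultured groups was not called (adjusted p = 0.297).

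*Mxd1*, which is induced in many kinds of cells as they differentiate, was also lower in the cultured groups. It had 3.87, 2.97 and 2.94 TPM in MyoD-tdTomato low libraries, 3.17, 2.95 and 3.29 TPM in MyoD-tdTomato high libraries, and 4.75, 7.75 and 6.59 TPM in QSCs libraries. The cultured groups overlapped and both were below QSCs. *Mxd1* fell by 1.76 ± 0.26 on the log2 scale in MyoD-tdTomato low cells relative to QSCs (adjusted p = 0.000168) and by 1.68 ± 0.26 in MyoD-tdTomato high cells (adjusted p = 0.00021), and the falls of *Mxd1* and *Mxi1* were called under all 21 alternatives in both comparisons. The difference of *Mxd1* between the cultured groups was -0.075 (adjusted p = 0.914).

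*Mxd4* was the most abundant antagonist in every group. It had 100.4, 64.3 and 69.5 TPM in MyoD-tdTomato low libraries, 69.9, 60.1 and 55.5 TPM in MyoD-tdTomato high libraries, and 27.9, 29.8 and 21.4 TPM in QSCs libraries. The cultured libraries overlapped each other and were all above QSCs. On counts *Mxd4* was higher in MyoD-tdTomato low cells than in QSCs (log2 fold change 0.79 ± 0.19, adjusted p = 0.00347), a call lost without QSCs replicate 1 (0.83, adjusted p = 0.0102), without QSCs replicate 3 (0.76, 0.0147) and without MyoD-tdTomato low replicate 1 (0.54, which is under the fold threshold).

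For MyoD-tdTomato high against QSCs the log2 fold change of *Mxd4* was 0.58 ± 0.19 and not called (adjusted p = 0.0173), but it was called without MyoD-tdTomato low replicate 1 (0.59, adjusted p = 0.00254), with no filter (0.75, 0.00358), with only these 2 groups in the fit (0.64, 0.00359) and on log2(TPM + 1) (1.21, 0.000151). With each library centred on its median TPM, which takes out most of the 0.59 shift of all genes, it was 0.51 and not called (adjusted p = 0.0243). The 2 cultured groups differed by 0.21 (adjusted p = 0.576), and by -0.052 without MyoD-tdTomato low replicate 1, the library with 100.4 TPM.

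*Mxd3*, an antagonist known in other tissues for its expression in cells that still divide, was close to absent from QSCs. It had 645, 406 and 484 counts in MyoD-tdTomato low libraries, 314, 326 and 298 in MyoD-tdTomato high libraries, and 4, 0 and 23 in QSCs libraries. The count of 0 in QSCs replicate 2 allows a level of up to 0.427 CPM there, for counting error only. In TPM it stood at 43.2, 28.9 and 32.6 in MyoD-tdTomato low libraries, 21.3, 21.0 and 20.8 in MyoD-tdTomato high and 0.317, 0 and 1.86 in QSCs libraries, with no overlap between any groups.

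Because of that 0 *Mxd3* was left out of the test, and its differences come from settings that keep it. For MyoD-tdTomato low against QSCs its log2 fold change was 4.56 ± 0.69 with edgeR's filterByExpr (adjusted p = 0.00022), 4.65 with no filter and 4.10 without QSCs replicate 2. For MyoD-tdTomato high against QSCs it was 3.97, 4.05 and 3.50 in the same order, called each time. For the cultured groups against each other, MyoD-tdTomato low over high, it was 0.60 with filterByExpr, not called (adjusted p = 0.62), and 0.61 ± 0.12, called higher in MyoD-tdTomato low cells (adjusted p = 0.00196), in the fit of the 6 cultured libraries blocked by replicate number. *Mxd3* overlaps *Prelid1* on the opposite strand by 105 bases, and the library kit does not mark strand.

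*Mnt*, the antagonist found in most cells whether they divide or rest, had 14.0, 14.5 and 13.0 TPM in MyoD-tdTomato low libraries, 8.88, 9.77 and 9.40 TPM in MyoD-tdTomato high libraries, and 7.37, 6.55 and 4.07 TPM in QSCs libraries. The groups did not overlap in TPM. On counts *Mnt* was not called in any comparison: the log2 fold change was 0.43 ± 0.18 for MyoD-tdTomato low against QSCs (adjusted p = 0.0579), 0.00093 ± 0.18 for MyoD-tdTomato high against QSCs (adjusted p = 0.997) and 0.43 between the cultured groups (adjusted p = 0.174). The first was called on log2(TPM + 1) (1.11, adjusted p = 0.000403) and without QSCs replicate 1 (0.61, adjusted p = 0.00927), but not with each library centred on its median TPM (0.34, adjusted p = 0.0664).

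*Mlx*, the partner of the Mondo proteins, overlapped between groups in TPM, with 24.3, 26.6 and 27.5 in MyoD-tdTomato low libraries, 25.0, 25.4 and 28.9 in MyoD-tdTomato high and 26.9, 31.6 and 21.7 in QSCs libraries. On counts it was lower in MyoD-tdTomato low cells than in QSCs (log2 fold change -0.81 ± 0.14, adjusted p = 0.000473), and likewise for MyoD-tdTomato high cells (-0.66 ± 0.14, adjusted p = 0.00178), whereas on log2(TPM + 1) the differences were -0.018 and -0.0020 and not called. Relative to the shift of all genes on that scale, with each library centred on its median, they were -0.79 and -0.69 and called. The call for MyoD-tdTomato high was lost without MyoD-tdTomato high replicate 1 (-0.64, adjusted p = 0.0101) or replicate 2 (-0.60, 0.0116), with no filter (-0.50, 0.0189) and with only these 2 groups in the fit (-0.60, 0.0139). *Mlx* overlaps *Psmc3ip* on the opposite strand by 385 bases.

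**Figure D2:**
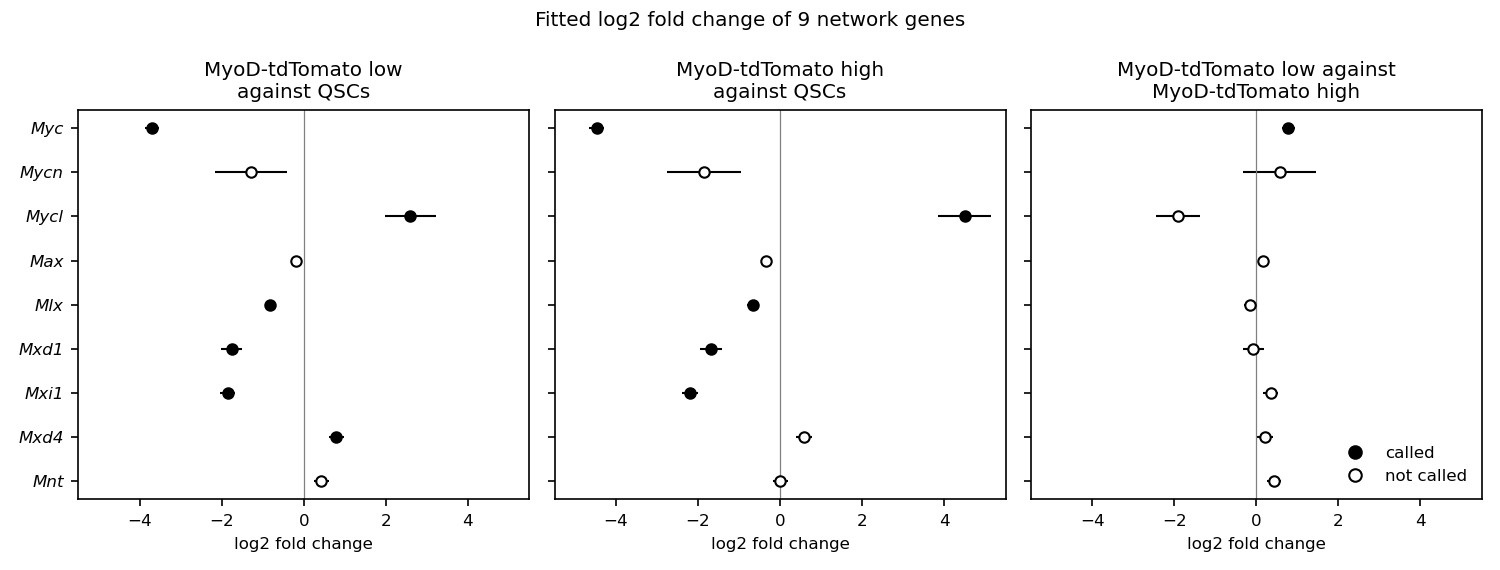
Log2 fold change with its standard error from edgeR for the 9 members tested in the 3 comparisons; filled points were called. *Myc*, *Mxd1*, *Mxi1* and *Mlx* are filled left of 0 in both comparisons with QSCs, and *Mycl* is filled right of 0 in both. *Mxd4* is filled right of 0 for MyoD-tdTomato low against QSCs only. Between the cultured groups *Myc* at 0.78 is the only filled point.

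Levels per length put the members in a different order in each group. In MyoD-tdTomato low cells *Mxd4* (78.1 ± 19 TPM), *Max* (69.9 ± 4.4 TPM) and *Myc* (63.2 ± 8.9 TPM) led and each overlapped the next in the order. In MyoD-tdTomato high cells *Mxd4* (61.8 ± 7.4 TPM), *Mycl* (59.9 ± 10 TPM) and *Max* (56.9 ± 4.0 TPM) led, likewise with overlapping ranges, ahead of *Myc* (33.7 ± 8.6 TPM). In QSCs *Myc* (473 ± 56 TPM) stood apart from *Max* (46.6 ± 11 TPM), which stood apart from *Mlx* (26.7 ± 5.0 TPM). *Mycn* was the lowest member in both cultured groups, at 0.852 ± 0.18 and 0.520 ± 0.12 TPM in MyoD-tdTomato low and high cells. In QSCs the ranges of *Mycl*, *Mycn* and *Mxd3*, the lowest 3, overlapped.

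Ratios of members within a library do not depend on how libraries are scaled. The 3 Myc factors summed to 81.6 ± 3.6 TPM in MyoD-tdTomato low cells, 94.1 ± 1.5 TPM in MyoD-tdTomato high cells and 476 ± 53 TPM in QSCs. The 5 antagonists summed to 117 to 169, 92.9 to 109 and 44.3 to 61.3 TPM in the libraries of the same groups. On scaled counts, however, the antagonists summed to 155 to 230, 138 to 169 and 157 to 171 CPM, with overlap between all groups. In TPM the Myc factors amounted to 0.616 ± 0.14 times the antagonists in MyoD-tdTomato low cells, 0.944 ± 0.07 times in MyoD-tdTomato high cells and 9.01 ± 0.79 times in QSCs. The ratio ran over 0.465 to 0.728 in MyoD-tdTomato low, 0.879 to 1.02 in MyoD-tdTomato high and 8.11 to 9.55 in QSCs libraries, with no overlap. Relative to *Max*, the Myc factors stood at 1.17 ± 0.04, 1.66 ± 0.14 and 10.4 ± 1.5 and the antagonists at 1.96 ± 0.46, 1.77 ± 0.26 and 1.16 ± 0.12, so the ratio of antagonists to *Max* overlapped between the cultured groups. These are ratios of RNA, and protein was not measured.

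The identity of the Myc RNA differed as well. *Myc* made up 77.3 ± 7.7% of the summed Myc factor TPM in MyoD-tdTomato low cells, 35.9 ± 9.7% in MyoD-tdTomato high cells and 99.4 ± 0.75% in QSCs. *Mycl* made up 21.6 ± 7.6%, 63.6 ± 9.8% and 0.339 ± 0.41%. In MyoD-tdTomato high libraries *Mycl* thus accounted for 52.5 to 71.1% of the Myc factor RNA, against 13.0 to 27.2% in MyoD-tdTomato low and at most 0.805% in QSCs libraries. Among antagonists *Mxd4* held the largest share in each group (56.9 ± 2.4%, 61.7 ± 2.4% and 49.6 ± 2.0%), while *Mxd3* held 25.5 ± 0.90% in MyoD-tdTomato low, 21.1 ± 1.4% in MyoD-tdTomato high and 1.60 ± 2.3% in QSCs. *Mxi1* held 4.79 ± 0.76%, 4.62 ± 0.37% and 25.5 ± 2.3%.

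**Figure D3:**
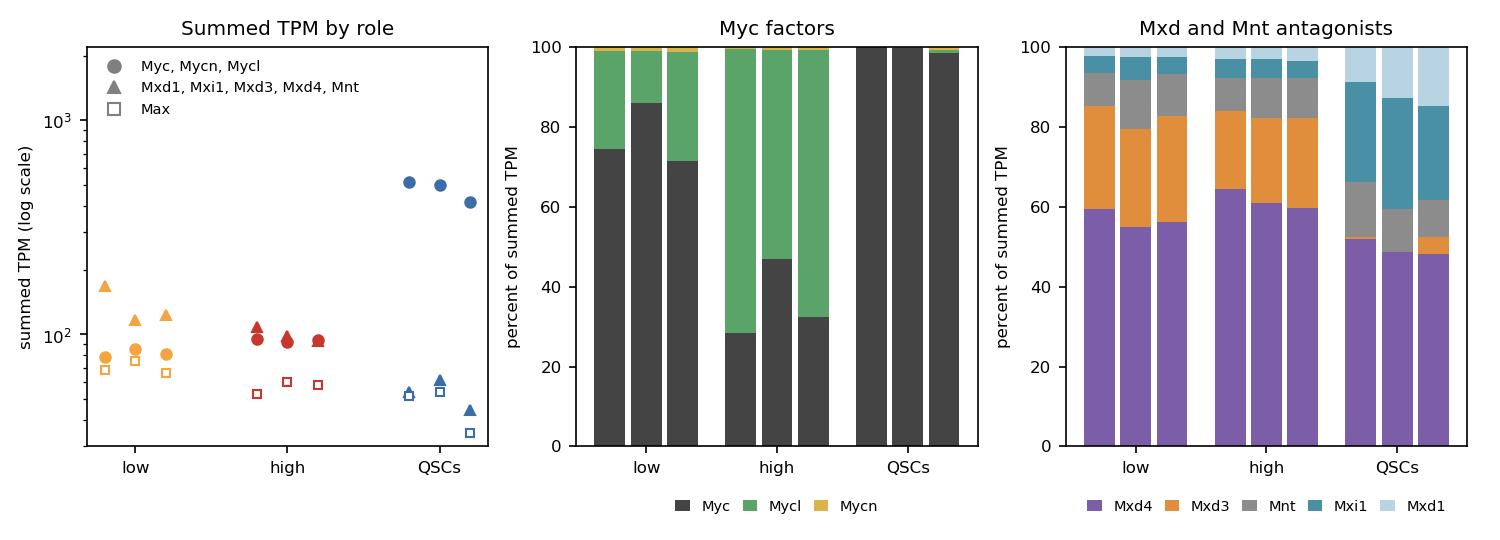
Left, summed TPM of the Myc factors (circles), the antagonists (triangles) and Max (squares) by library on a log axis; middle and right, each library's makeup of Myc factor and antagonist TPM in percent. QSCs have Myc factors 8.11 to 9.55 times as high as antagonists, and *Mycl* is the larger share of the Myc factors only in the MyoD-tdTomato high libraries (52.5 to 71.1%).

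The remaining partners of Max and Mlx were lower in the cultured cells. *Mga*, which encodes a large Max partner found in a repressive complex, had 52.4 ± 8.3 CPM in MyoD-tdTomato low cells, 64.1 ± 2.8 CPM in MyoD-tdTomato high cells and 106 ± 15 CPM in QSCs, and *Mlxip*, which encodes MondoA, had 35.4 ± 2.0, 33.4 ± 3.1 and 80.5 ± 13 CPM. *Mlxipl*, which encodes the glucose-responsive factor ChREBP, was at 0.698 ± 0.49 CPM in MyoD-tdTomato low cells, 0.584 ± 0.18 CPM in MyoD-tdTomato high cells and 52.6 ± 20 CPM in QSCs (log2 fold change -6.25 ± 0.50 and -6.51 ± 0.51 against QSCs, adjusted p = 1.9e-06 and 1.48e-06). All 3 were called lower in both comparisons with QSCs, beside 26.5% and 26.4% of all genes, and none was called between the cultured groups. On log2(TPM + 1), 1 of the 3 was called lower in each comparison with QSCs, beside 12.5% and 14.3% of all genes. *Txnip* and *Arrdc4*, arrestin-like genes known as direct targets of MondoA and Mlx, were lower too. *Txnip* had 19.8 ± 11, 14.6 ± 5.3 and 181 ± 36 CPM and *Arrdc4* 2.14 ± 0.63, 1.54 ± 0.055 and 15.5 ± 3.0 CPM in MyoD-tdTomato low cells, MyoD-tdTomato high cells and QSCs. The 4 differences from QSCs were called (adjusted p = 6.43e-06 to 3.15e-05), beside the same 26.5% and 26.4% of all genes called lower.

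Genes of the complexes that network proteins recruit were counted next. The counts of this and the following lists against QSCs stand beside 22.6% of all genes called higher and 26.5% called lower in MyoD-tdTomato low cells, and 24.6% and 26.4% in MyoD-tdTomato high cells. On log2(TPM + 1), where the median of all genes is shifted upward, 47.7% of all genes were called higher and 12.5% called lower in MyoD-tdTomato low cells and 45.6% and 14.3% in MyoD-tdTomato high cells. Relative to QSCs, 4 of 10 Myc coactivator genes were called higher and 1 was called lower in MyoD-tdTomato low cells, with a median log2 fold change of 0.56 beside -0.075 for all genes, and 4 and 1 in MyoD-tdTomato high cells, with a median of 0.53 beside -0.022. They include *Ruvbl2*, a helicase of the TIP60 and INO80 complexes, at 136 ± 12 CPM in MyoD-tdTomato low cells, 110 ± 16 CPM in MyoD-tdTomato high cells and 36.1 ± 9.5 CPM in QSCs, and *Trrap*, the scaffold that Myc binds, at 167 ± 8.5, 196 ± 4.3 and 97.4 ± 10 CPM. Of 10 corepressor genes, 4 were called higher in MyoD-tdTomato low cells and 5 in MyoD-tdTomato high cells than in QSCs, and none lower, with medians of 0.52 in both. *Sap30*, a subunit of the Sin3 complex, had 25.7 ± 2.4 CPM in MyoD-tdTomato low cells, 59.7 ± 11 CPM in MyoD-tdTomato high cells and 6.62 ± 0.68 CPM in QSCs, and was the only gene of either list called between the cultured groups (log2 fold change -1.21 ± 0.17, adjusted p = 0.00194). On log2(TPM + 1), 9 of the 10 coactivators were called higher and none lower in MyoD-tdTomato low cells than in QSCs, and 8 and 1 in MyoD-tdTomato high cells. Of the 10 corepressors, 9 and 8 were called higher on that scale and none lower.

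Of 14 genes that set the stability of the Myc protein, 3 were called higher and 2 called lower in MyoD-tdTomato low cells than in QSCs, beside 22.6% and 26.5% of all genes, and 4 and 2 in MyoD-tdTomato high cells, beside 24.6% and 26.4%. The shares of the list called were thus near or below those of all genes, and its medians were 0.15 and 0.24. On log2(TPM + 1) 10 and 9 of the 14 were called higher and none lower, so the 2 lower calls on counts were not made on that scale. *Aurka*, a mitotic kinase that protects N-Myc from turnover, was among those higher in MyoD-tdTomato low cells (81.3 ± 13 CPM, against 6.07 ± 5.3 CPM in QSCs). *Cip2a*, whose protein protects Myc, had 77.7 ± 7.5 CPM in MyoD-tdTomato low cells, 70.1 ± 5.7 CPM in MyoD-tdTomato high cells and 12.8 ± 5.0 CPM in QSCs. *Ppp2r5a*, a phosphatase subunit linked to Myc turnover, was lower, at 53.7 ± 2.3, 50.9 ± 3.1 and 117 ± 2.9 CPM. *Usp28*, a deubiquitinase of Myc, had 25.8 ± 2.4 CPM in MyoD-tdTomato low cells, 75.6 ± 22 CPM in MyoD-tdTomato high cells and 21.8 ± 7.8 CPM in QSCs. It was called lower in MyoD-tdTomato low cells relative to MyoD-tdTomato high cells (log2 fold change -1.55 ± 0.27, adjusted p = 0.00513). That was the only call among the 14 between the cultured groups, beside 1.23% of all genes called higher and 3.88% called lower.

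Among 30 genes that Myc is known to activate, 13 were called higher and 4 were called lower in MyoD-tdTomato low cells than in QSCs, with a median of 0.64 beside -0.075 for all genes, and 11 and 4 in MyoD-tdTomato high cells, with a median of 0.48 beside -0.022. On log2(TPM + 1), 25 of the 30 were called higher and 3 called lower in MyoD-tdTomato low cells, and 19 and 4 in MyoD-tdTomato high cells, beside the 47.7% and 45.6% of all genes called higher on that scale. *Odc1*, the first enzyme of polyamine synthesis, was lower in both, at 361 ± 42 CPM in MyoD-tdTomato low cells, 338 ± 38 CPM in MyoD-tdTomato high cells and 2428 ± 310 CPM in QSCs, and so was *Nop58*, a ribosome biogenesis factor, at 151 ± 18, 143 ± 16 and 572 ± 48 CPM. *Ldha*, which makes lactate from pyruvate, was higher, at 1053 ± 24, 1211 ± 59 and 503 ± 25 CPM. None of the 30 was called between the cultured groups with edgeR, where their median was 0.10.

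Of 11 genes that Myc is known to repress, 2 were called higher and 8 were called lower in MyoD-tdTomato low cells than in QSCs, and 3 and 7 in MyoD-tdTomato high cells, beside 26.5% and 26.4% of all genes called lower. Their medians were -1.42 and -1.14, beside -0.075 and -0.022 for all genes. On log2(TPM + 1), 3 were called higher and 6 called lower in MyoD-tdTomato low cells, and 4 and 5 in MyoD-tdTomato high cells. *Ndrg1*, a gene of growth arrest and hypoxia, had 9.32 ± 2.4 CPM in MyoD-tdTomato low cells, 6.06 ± 0.67 CPM in MyoD-tdTomato high cells and 570.5 ± 72 CPM in QSCs. The cell cycle inhibitors *Cdkn1a* (357.5 ± 46 CPM in MyoD-tdTomato low against 1103 ± 243 CPM in MyoD-tdTomato high cells) and *Cdkn1c* (12.6 ± 4.8 against 38.1 ± 11 CPM) and the DNA damage response gene *Gadd45a* (55.9 ± 22 against 231 ± 59 CPM) were called lower in the MyoD-tdTomato low group, at log2 fold changes of -1.63, -1.59 and -2.04 (adjusted p = 0.00131, 0.00776 and 0.00152). These are 3 of the 11, beside 3.88% of all genes. The other 8 were not called, and the median of the 11 in this comparison was 0.11, beside -0.00084 for all genes.

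*Myc* is itself an early response gene, and other immediate early genes were likewise highest in QSCs. All 16 were called lower in both cultured groups than in QSCs, with medians of -4.75 and -5.25. They summed to 620 to 808 CPM in MyoD-tdTomato low, 644 to 724 CPM in MyoD-tdTomato high and 22044 to 30186 CPM in QSCs libraries. The part of muscle digestion in these QSCs levels, and in that of *Myc*, was not tested. *Fosb* had 4.71 ± 1.6 CPM in MyoD-tdTomato low cells, 2.27 ± 0.75 CPM in MyoD-tdTomato high cells and 5144 ± 926 CPM in QSCs. Between the cultured groups 4 of the 16 were called higher in MyoD-tdTomato low cells and none lower, beside 1.23% and 3.88% of all genes. These were *Egr2*, *Egr3*, *Ier3* and *Klf6*, at log2 fold changes of 0.70 to 1.73.

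Proliferation genes were higher in the cultured groups, where *Myc* was lower. Of 12, 11 were called higher in each cultured group than in QSCs, with medians of 3.58 and 3.39, and none was called between the cultured groups. *Mki67*, a marker of dividing cells, had 366 ± 25 CPM in MyoD-tdTomato low cells, 304 ± 17 CPM in MyoD-tdTomato high cells and 25.9 ± 15 CPM in QSCs. Of 10 muscle stem cell and myogenic genes tested, 1 was called higher and 2 called lower in MyoD-tdTomato low cells than in MyoD-tdTomato high cells, beside 1.23% and 3.88% of all genes. *Myog*, the factor that starts differentiation, was called lower, with 302 ± 151 CPM in MyoD-tdTomato low cells and 2273 ± 707 CPM in MyoD-tdTomato high cells (a log2 fold change of -2.91 ± 0.39, adjusted p = 0.00172). Of 8 markers of mature myofibres, 5 were called lower in MyoD-tdTomato low cells than in MyoD-tdTomato high cells and none higher, beside 3.88% and 1.23% of all genes. They summed to 371 to 1726 CPM in MyoD-tdTomato low, 5660 to 12028 CPM in MyoD-tdTomato high and 390 to 1071 CPM in QSCs libraries. The relation of *Mycl* to these genes was not tested.

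**Figure D4:**
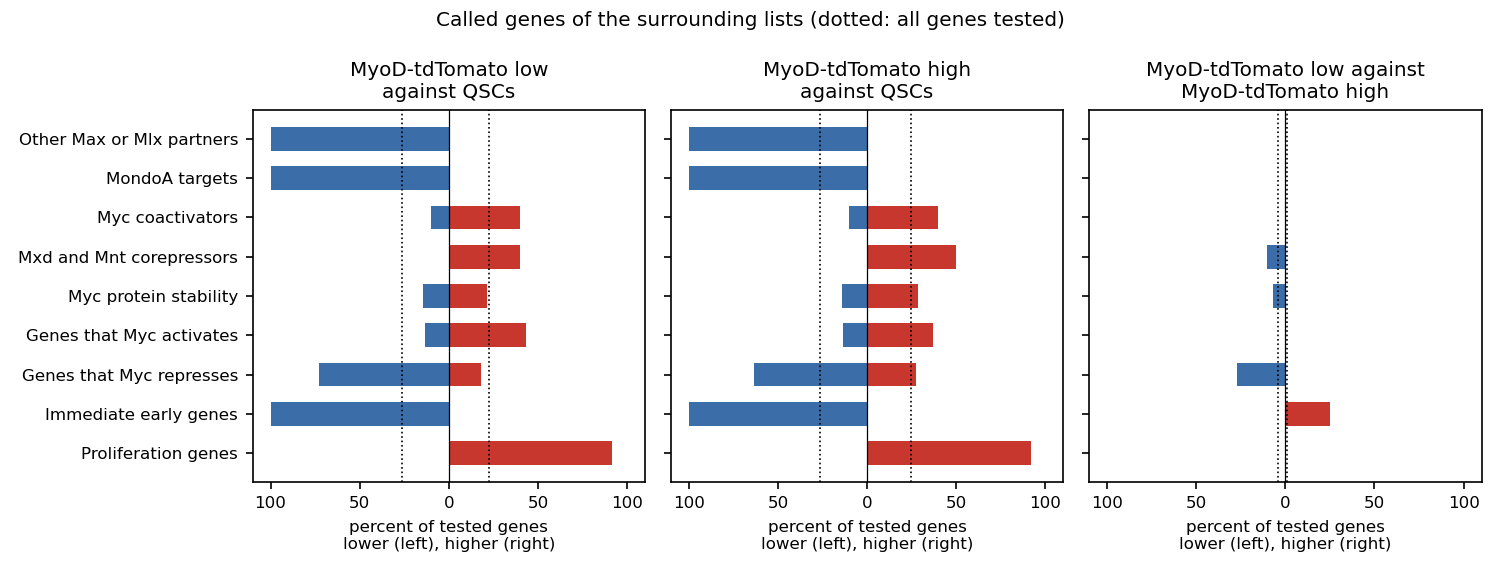
Percent of the tested genes of each list that were called lower (blue, left) or higher (red, right) in the 3 comparisons; dotted lines mark the percent of all 12614 genes called in that direction. All 16 immediate early genes lie on the lower side and 11 of 12 proliferation genes on the higher side in both comparisons with QSCs, and few bars remain between the cultured groups.

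The genes most like 3 of the members across the 9 libraries were found by the Pearson correlation of log2 CPM. For *Myc* they were *Pxdc1*, *Ripk1*, *Klf6*, *Srxn1* and *Litaf*, each at r = 0.998. For *Mycn* they were *Snrpf* (r = 0.942), *Nle1*, *Atg5*, *Ntmt1* and *Rp2*, and for *Mxd4* *Tsc22d3* (r = 0.960), *Islr*, *Sparc*, *Slc35b2* and *Tent5b*. These correlations rest on 9 libraries in 3 groups, share the libraries' depth and scaling, and describe likeness only. Those of *Mycn* also rest on few counts, 3 to 70 in the QSCs libraries, with the 70 in QSCs replicate 3.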

How the data were processed

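Libraries were made with a poly(A) selection and a kit that does not mark strand, and 36-base paired-end reads were mapped and counted by the authors in CLC Genomics Workbench 20.0.3 on GRCm39 (per the submitters' processing notes); the annotation version and counting options are not given in the sources used here. The authors deposited raw counts per gene and library, and TPM from the same mapping, normalized within each library. Their 24 comparison columns (fold changes and p-values) and 18 per-sample columns (RPKM and CPM) were not used. Groups came from the sample labels. The network members and gene lists were chosen with earlier results of these data known.

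Counts of all 9 libraries were fitted with edgeR 4.0.16 in R 4.3.3 (TMM, robust quasi-likelihood, 1 coefficient per group), after removing 13041 genes with a 0 in any library. CPM values use TMM factors. TPM was also tested with limma 3.58.1 on log2(TPM + 1); an exact permutation test of 3 libraries against 3 cannot go below p = 0.1. The script was tested on simulated data. All members are named, and from each other list up to 4 called genes per comparison with the highest mean CPM, every partner and MondoA target, and for *Myc*, *Mycn* and *Mxd4* the 5 most correlated genes of at least 10 CPM; the marker genes listed at 0 were named after their values were seen.

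No library repeated another. Deviations from group means of same-numbered MyoD-tdTomato low and high libraries correlated across genes at 0.44, 0.43 and 0.18, and those of differently numbered ones at -0.43 to 0.013. The numbers were therefore taken to pair those libraries, which the labels do not state. Same-numbered cultured and QSCs libraries correlated at -0.046 to 0.013. Alternatives were DESeq2 1.42.0, other scalings, filters, thresholds and pseudocounts, a replicate block, fits of 2 groups and leaving out each library; limma on TPM with each library centred on its median was chosen after seeing the data.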

Additional observations from a re-analysis of the deposited data

How the results depend on the processing

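Against QSCs, the number of members called stayed between 4 and 7 under every alternative run for both MyoD-tdTomato low (6 in the fit reported) and MyoD-tdTomato high (5), and between 4 and 6 with any 1 library left out. Between the cultured groups the single call was the weakest result: 0 members were called with filterByExpr or limma on log2(TPM + 0.1), 2 at an adjusted p of 0.05 with or without the fold threshold, 3 in the replicate block fit of only the cultured libraries (*Myc* and *Mxd3* higher, *Mycl* lower), and 0 to 1 with 1 library left out (without QSCs replicate 3, and in the fit of only the cultured libraries with no block, the 1 call was *Mycl*, not *Myc*). The replicate block in the fit of all 9 libraries changed no call of a member. Members with small or uncertain differences changed sign without passing the threshold, apart from *Max* on TPM. For MyoD-tdTomato low against QSCs, *Mycn* was at 0.063 on log2(TPM + 1), 0.51 on log2(TPM + 0.1) and from -1.82 to 1.27 with 1 library left out (1.27 without QSCs replicate 3), and *Max* at 0.60 and 0.61 on the 2 TPM scales. For MyoD-tdTomato high against QSCs, *Mnt* was at -0.014 with DESeq2, -0.012 with RLE scaling, -0.090 with upper-quartile scaling, -0.095 on centred TPM and from -0.14 (without QSCs replicate 3) to 0.18 with 1 library left out; *Max* was at 0.31 on both TPM scales and *Mycn* ran from -2.39 to 0.69 (without QSCs replicate 3) with 1 library left out. Between the cultured groups, *Mxd1* was at 0.012 with upper-quartile scaling, 0.036 and 0.043 on the 2 TPM scales and from -0.25 to 0.0087 with 1 library left out, and *Mxd4* ran from -0.052 (without MyoD-tdTomato low replicate 1) to 0.35. The causes were not tested. QSCs replicate 2, with 7514633 counts, and QSCs replicate 3 limit what can be said of *Mycn*, *Mycl* and *Mxd3* in QSCs. Replicate 3 had the most counts of each of these genes among the QSCs libraries, at 70, 119 and 23.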
